A study of Danio rerio with 5 samples.

Results

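Adult basal cells of the zebrafish caudal fin were set against the periderm of the embryo at 1 dpf (day post fertilization), that is, the innermost layer of mature skin against the outermost layer of embryonic skin. The comparison set 3 of the 5 RNA-seq libraries of the series against each other: the raw counts of the 1 library of adult basal cells and those of both libraries of embryonic periderm. Each gene symbol was represented by the transcript row whose mean count over the 5 libraries was highest, and 18147 of 30849 gene symbols had enough counts to be tested. The periderm cells were krt4+ cells of 1 dpf embryos that carried krt4:creERt2, a Cre recombinase driven by the krt4 promoter. The same Tg line held the switch cassette Olactb:loxP-dsRed2-loxP-egfp and, as a marker, cryaa:egfp, whose promoter is known for its activity in the lens. The adult cells were itgb4+ cells of Tg(itgb4:mcherry) fish, whose adult age is not given. The remaining pair of libraries held itgb4+ basal precursors of 1 dpf embryos that also carried Tg(itgb4:mcherry). Their values are given beside the others for part of the genes, with no test against them. The precursor libraries also entered the fit: the gene filter, the scaling and the variance behind each p-value drew on all 5 libraries. The wild-type stock behind the study came from the Tubingen strain and had been inbred. Cells were separated by fluorescence on a sorter, with no further treatment named. Adult basal cells and periderm differed in age, in body site, in transgenic line and in reporter as well as in skin layer, and these cannot be told apart. The labels name no clutch or fish for a replicate, so a p-value reflects only how far these samples lie apart, and that spread may be technical. With 1 adult library, that library was assumed to vary like the embryonic pairs.

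Zebrafish skin starts as 2 layers. Periderm is a flat sheet of tightly joined cells that seals the embryo from water, carries actin ridges on its surface and is later replaced. Basal keratinocytes sit below it on the basement membrane. They hold on to it through hemidesmosomes, complexes in which integrin and collagen XVII in the cell membrane tie keratin filaments inside the cell to laminin outside. In the adult they are the stem cell layer of a stratified epidermis that also meets pathogens and wounds.

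Of the 4 marker genes, itgb4 and krt5 were higher and krt4 and agr1 lower in adult basal cells than in periderm. The sorts are named by itgb4 and krt4, so the directions of these genes are not independent of the sorting. itgb4, the integrin beta 4 subunit of the hemidesmosome and the gene of the adult reporter, measured 9.67 and 41.5 CPM (read counts scaled to library size, with TMM factors) in periderm 1 and 2. It measured 488 and 498 CPM in the embryonic basal precursors and 3915 CPM in adult basal cells (95% counting interval 3832 to 3999). It was lowest in periderm, intermediate in the precursors and highest in the adult, 151-fold above periderm (log2 fold change 7.24, SE 0.85, adjusted p = 0.00149). krt4, the periderm keratin whose promoter drove the Cre, was at 60629 and 31108 CPM in periderm and at 197 CPM in the adult library (log2 fold change -7.86, SE 1.46, adjusted p = 0.00706). In the precursors krt4 stood at 23978 and 18240 CPM, below both periderm libraries by value and far above the adult. agr1, an anterior gradient protein of the secretory pathway, fell from 2237 and 1134 CPM in periderm to 16.98 CPM in the adult (log2 fold change -6.63, SE 0.86, adjusted p = 0.00211). The precursors held it at 4.16 and 6.68 CPM, so a low level was shared by the embryonic and the adult itgb4+ sorts.

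krt5, a type II keratin, was not absent from periderm: it measured 4442 and 2844 CPM there, 1052 and 328 CPM in the precursors and 31003 CPM in the adult, an 8.51-fold difference from periderm (log2 fold change 3.09, SE 0.85, adjusted p = 0.0297). By value it was higher in both periderm libraries than in both precursor libraries. The basal cell regulator tp63, which specifies keratinocytes of that layer, measured 26.6 and 66.4 CPM in periderm, 195 and 219 CPM in the precursors and 347 CPM in the adult (log2 fold change 2.89, SE 0.56, adjusted p = 0.00847). The calls on krt4 and krt5 were lost without either periderm library, when only 1 residual degree of freedom was left: the adjusted p of krt4 was then 0.110 without periderm 1 and 0.110 without periderm 2, and that of krt5 was 0.218 and 0.275. krt5 also missed the threshold in a test against a 2-fold change (adjusted p = 0.0564). Over 16 alternative settings the adjusted p of krt5 lay between 1.871e-04 and 0.275.

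**Figure D1:**
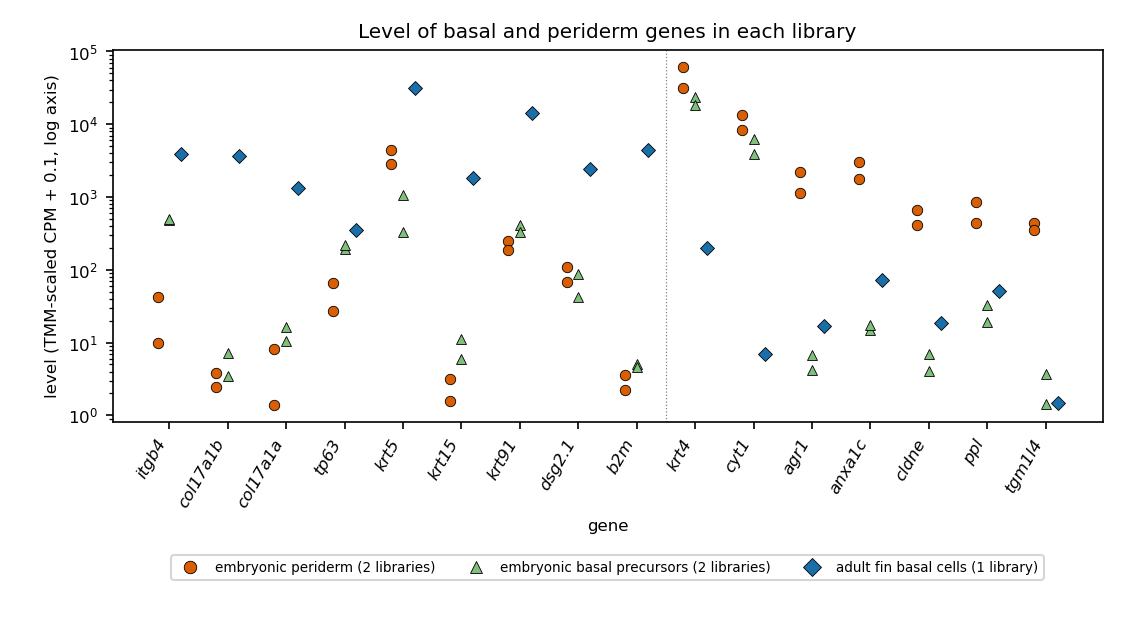
Level of 16 genes in each of the 5 libraries, as TMM-scaled CPM plus 0.1 on a log axis; circles are periderm libraries, triangles embryonic basal precursors and the diamond the adult basal library. Left of the dotted line the adult library is above both periderm libraries for every gene shown, as for itgb4 at 3915 against 9.67 and 41.5 CPM, and right of it below both, as for krt4 at 197 against 60629 and 31108 CPM.

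The gene totals were between 3521988 counts in the adult library and 7505589 in periderm 2, and 16689 gene symbols had a count in the adult library against 21959 and 21755 in periderm. A floor of 3 counts corresponded to 1.38 CPM in the adult library and covers counting error only. At an adjusted p of 0.05, 2587 genes (14.3% of those tested) were higher in adult basal cells and 2614 (14.4%) lower, and the median log2 fold change over all tested genes was -0.72. The scaling weighs on this split: TMM set the adult library 0.937 log2 units higher relative to periderm than library totals would, and with totals alone the median moved to -1.66 and the calls to 1793 higher and 5133 lower. The calls of each gene list below are to be read beside the 14.3% higher and 14.4% lower over all tested genes. High enough counts in 1 library were enough for a gene to be tested. A gene at 0 in periderm could then only be called higher, and a gene at 0 in the adult only lower. Among the higher calls, 242 had no count in either periderm library. Among the lower calls, 1066 had none in the adult library, and folds for such genes are bounds against the floor. In these bulk libraries, fewer cells of a type and less RNA per cell cannot be told apart.

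**Figure D2:**
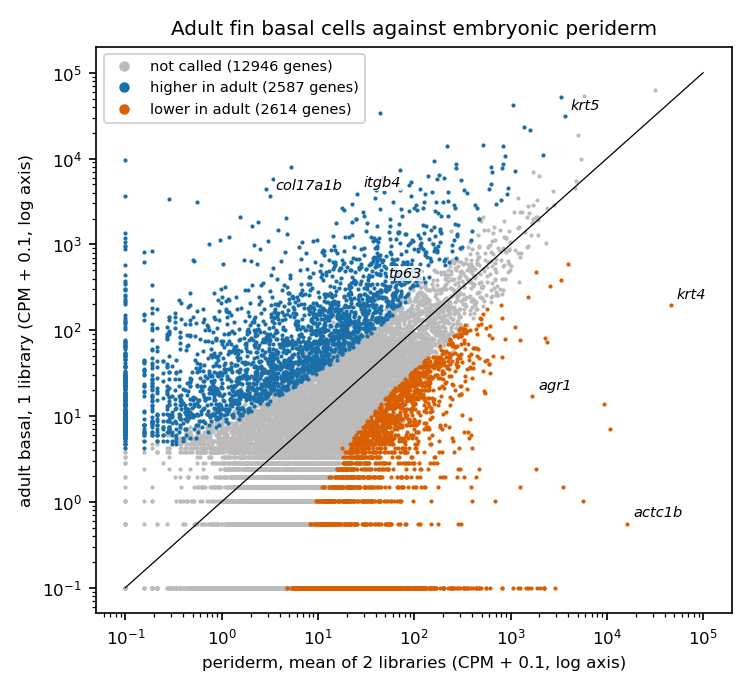
Each point is 1 of 18147 tested genes, at its mean CPM over both periderm libraries (x axis) and its CPM in the adult basal library (y axis), both plus 0.1 on log axes; the line marks equal levels. The 2587 higher calls lie above the line and the 2614 lower calls below it, and the columns and rows of points at 0.1 are genes with no count on 1 side.

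The machinery that anchors a cell to the basement membrane was mostly higher in adult basal cells. Of 19 tested genes of the hemidesmosome and integrin list, 10 were higher and 1 lower (median log2 fold change 1.64, against -0.72 over all genes, and 0.71 with library totals). Both zebrafish genes for collagen XVII, the transmembrane collagen of the hemidesmosome, were nearly silent in periderm. col17a1b measured 2.37 and 3.72 CPM in periderm, 3.401 and 7.03 CPM in the precursors and 3656 CPM in the adult (log2 fold change 10.19, SE 0.71, adjusted p = 4.732e-04). Its paralog col17a1a measured 1.28 and 8.12 CPM in periderm, 16.4 and 10.28 CPM in the precursors and 1334 CPM in the adult (log2 fold change 8.07, SE 0.87, adjusted p = 0.00124). Only the adult library held either collagen at a high level, in contrast to itgb4, which was already at 488 and 498 CPM in the precursor libraries.

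The integrin partners followed the same direction. itga3a, an alpha subunit that binds laminin, rose from 0.73 and 1.47 CPM to 92.7 CPM (78.8-fold, adjusted p = 8.792e-04). itga6b, the alpha subunit that pairs with itgb4 in hemidesmosomes, was at 12.8 and 18.95 CPM in periderm and 796 CPM in the adult (49.8-fold, adjusted p = 0.00195). dst, which encodes the plakin that links hemidesmosomes to keratin, was at 10.4 and 15.2 CPM against 484 CPM (37.5-fold, adjusted p = 0.00118). cd151, a tetraspanin of integrin complexes, went the other way, from 20.3 and 57.2 CPM to 0 counts in the adult, at least 28.1-fold lower (adjusted p = 0.00808). itgb1b, the broadly used beta 1 subunit, measured 35.8 and 57.1 CPM in periderm and 112 CPM in the adult and missed the threshold (adjusted p = 0.0753, log2 fold change 1.27, SE 0.47).

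The basement membrane list stood near all tested genes. Of 32 tested members, 3 were higher and 5 lower (median log2 fold change -0.74, or -0.36 with genes at 0 set at their bound). Of all tested genes, 14.3% were higher and 14.4% lower, with a median of -0.72. The nidogen genes nid1a and nid1b, whose proteins bridge laminin and collagen IV, fell from 64.2 and 106 CPM and from 12.04 and 15.9 CPM to 0 counts. These were falls of at least 61.9-fold and at least 10.15-fold (adjusted p = 0.00176 and 0.0106). hmcn2 (hemicentin) and frem1b (Fraser complex) also fell (adjusted p = 0.0321 and 0.0163), and lamb2 was the fifth. sparc, a secreted collagen-binding glycoprotein, measured 499 and 438 CPM in periderm and 2001 CPM in the adult, a call (adjusted p = 0.0215) that was lost without either periderm library (adjusted p = 0.124 and 0.138). frem2b rose with an adjusted p of 0.0341, which became 0.108 without periderm 1 and 0.241 with library totals.

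Among 25 tested genes of the wider matrix, 3 were higher and 10 lower (median log2 fold change -0.65). The shares over all tested genes were 14.3% higher and 14.4% lower (median -0.72). fn1b, a fibronectin, measured 15.0 and 34.1 CPM in periderm, 174 and 118 CPM in the precursors and 677 CPM in the adult (27.4-fold, adjusted p = 0.00176). The other higher calls, col12a1a (adjusted p = 0.0282) and the collagen chaperone serpinh1b (adjusted p = 0.0303), were lost without either periderm library, with adjusted p of 0.101 and 0.0641 for col12a1a and 0.179 and 0.144 for serpinh1b. In the precursors col12a1a measured 170.6 and 141.4 CPM, against 162.4 CPM in the adult. The precursors held serpinh1b at 7008.9 and 1161.2 CPM, against 2151.2 CPM in the adult. col2a1a, the cartilage and notochord collagen, was at 313 and 185 CPM in periderm and at 0 in the adult, at least 181-fold lower (adjusted p = 0.00201). tnc, which encodes tenascin C, fell at least 52.8-fold to 0 counts (adjusted p = 0.00307). col14a1a, a fibril-associated collagen, fell from 64.0 and 189 CPM in periderm to 3 adult counts and stood at 321 and 390 CPM in the precursors (adjusted p = 0.00492). Of 26 tested mesenchyme markers, 5 were higher and 7 lower, against the same shares over all tested genes. They took 0.255% and 0.399% of gene counts in periderm, 1.04% and 1.08% in the precursors and 0.259% in the adult. With TMM factors their sum was 2148 and 3379 CPM in periderm and 4187 CPM in the adult. The mesenchyme list shares 5 genes with the matrix list, among them fn1b, so the lists are not independent. Without the shared genes the sum was 538 and 708 CPM in periderm, 2508 and 2327 CPM in the precursors and 449 CPM in the adult. Among the 7 lower mesenchyme markers, the dermal proteoglycan gene kera was at 87.0 and 118 CPM in periderm and at 0 in the adult. Among the 5 higher ones were fn1b and runx2a, with runx2a at 0.18 and 0 CPM in periderm and 24.3 CPM in the adult. The part of mesenchymal cells in the matrix result was not tested.

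The main keratins of the adult library differed from those of the embryonic libraries of both layers. Their summed share of gene counts, a share of library totals without TMM factors, was 11.7% and 6.37% in periderm, 3.99% and 3.34% in the precursors and 3.46% in the adult. With TMM factors the sum was 99051 and 53915 CPM in periderm, 41615 and 28110 CPM in the precursors and 55946 CPM in the adult. On that scale the adult lay between the periderm libraries. Of 18 tested keratins, 5 were higher and 7 lower. To compare keratins with each other, levels were divided by the length of the transcript row. Per kilobase, krt4 made up 48.5% and 45.0% of the keratin level in periderm, and cyt1 and cyt1l, both type I keratins of the outer layer, a further 19.4% and 21.5% and 17.1% and 16.7%. The same 3 genes led in the precursors, with krt4 at 45.3% and 52.4%, cyt1 at 21% and 20.3% and cyt1l at 14.3% and 13.2%. In the adult these 3 genes together were nearly gone, with krt4 at 0.271%. krt5 made up 44.5%, krt91 32.1% and krtt1c19e 15% of the adult keratin level, against 3.71% and 4.29%, 0.325% and 0.443%, and 3.28% and 1.92% in periderm.

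**Figure D3:**
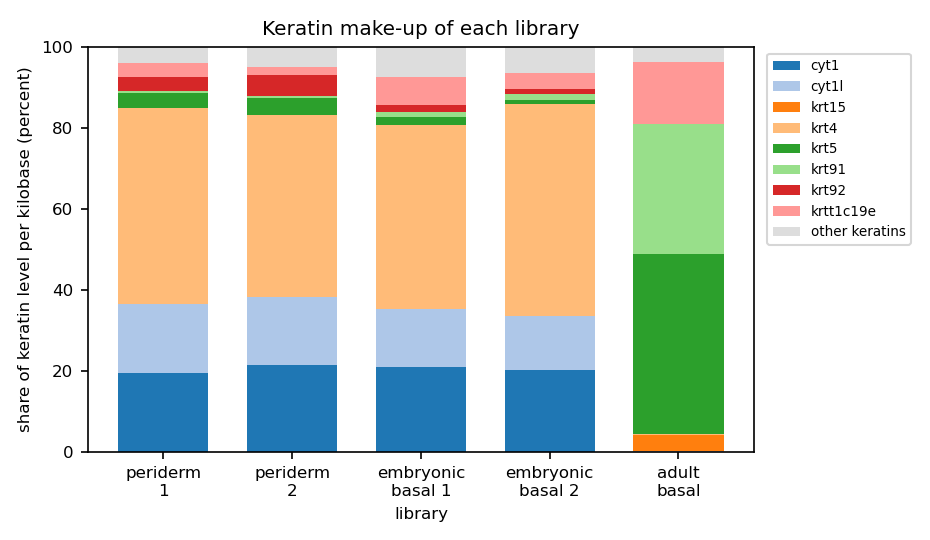
Share of each keratin in the summed keratin level per kilobase of transcript row (percent), 1 bar per library. krt4, cyt1 and cyt1l fill most of the bar in the embryonic libraries of both layers, and krt5 (44.5%), krt91 (32.1%) and krtt1c19e (15%) fill most of the adult bar.

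In level, krt91 rose from 247 and 187 CPM in periderm to 14155 CPM in the adult, with 416 and 335 CPM in the precursors (65.3-fold, adjusted p = 0.00123). krt15, a type I keratin that in mammals marks the basal layer, measured 3.10 and 1.47 CPM in periderm, 10.96 and 5.83 CPM in the precursors and 1804 CPM in the adult (815-fold, adjusted p = 4.822e-04). Both were high in the adult library alone. cyt1 fell from 13459 and 8236 CPM to 6.88 CPM and cyt1l from 12081 and 6539 CPM to 13.8 CPM (1571-fold and 675-fold, adjusted p = 0.00174 and 0.00211). krt92 and krt17 fell 28.7-fold and 16.4-fold (adjusted p = 0.00483 and 0.00479). krtt1c19e, a basal keratin, measured 2600 and 843 CPM in periderm, 2376 and 902 CPM in the precursors and 6962 CPM in the adult. Its libraries lay far apart within the periderm pair and also within the precursor pair. The difference between adult and periderm did not pass (log2 fold change 2.02, SE 0.82, adjusted p = 0.0998), though it did without precursor library 2 (adjusted p = 0.0163). krt8, an early simple-epithelium keratin, measured 205 and 236 CPM in periderm and 171 CPM in the adult (adjusted p = 0.634). Keratin genes are close in sequence, and krt4 and krt5 have several rows each, so reads shared between copies make single values uncertain.

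Most genes of the outer layer were lower in the adult. The periderm identity list had 37 tested genes, of which 21 fell and 8 rose (median log2 fold change -3.69). Among the lower ones were anxa1c, an annexin, at 3073 and 1751 CPM in periderm, 14.6 and 17.1 CPM in the precursors and 72.5 CPM in the adult (33.3-fold, adjusted p = 0.00311). The claudin gene cldne measured 669 and 413 CPM in periderm, 3.97 and 6.85 CPM in the precursors and 18.4 CPM in the adult (29.4-fold, adjusted p = 0.00289). lye, which encodes a Ly6 family protein, measured 331 and 234 CPM in periderm and 2.29 CPM in the adult (122-fold, adjusted p = 0.00129). vstm5, arl11 and the connexin gene cx30.3 had 0 counts in the adult and were at least 30.6-fold, at least 24.6-fold and at least 17.9-fold lower (adjusted p = 0.00574, 0.00577 and 0.0227). DESeq2 did not call cx30.3 (adjusted p = 0.290).

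The list did not move as a block. krt91, a main keratin of the adult library, is also on this list and rose 65.3-fold (adjusted p = 0.00123). icn, a calcium-binding ictacalcin, stood at 969 and 780 CPM in periderm, 93.0 and 142 CPM in the precursors and 10732 CPM in the adult (12.3-fold higher, adjusted p = 0.00464), a call lost without either periderm library (adjusted p = 0.0701 and 0.0776). Its near copy icn2 stood at 2772 and 1850 CPM in periderm and 1047 CPM in the adult and did not pass (log2 fold change -1.14, SE 0.63, adjusted p = 0.198), but was called lower with library totals (adjusted p = 0.0326). Reads shared between icn and icn2 were not told apart. spaca4l, a Ly6 family gene, and lgals1l1, a galectin, rose 23.4-fold and 31.3-fold over periderm (adjusted p = 0.00182 and 0.00259), and by value both precursor libraries also stood above both periderm libraries. grhl1 and grhl3, grainyhead factors of barrier formation, measured 24.4 and 25.5 CPM and 10.6 and 6.77 CPM in periderm and 22.9 and 7.80 CPM in the adult. Neither passed (adjusted p = 0.875 and 0.905).

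Desmosomes, the junctions that tie keratin filaments of neighbouring cells together, and the plakins and transglutaminases of the cell envelope were called in both directions. Of 24 tested genes, 11 were higher and 7 lower, with a median log2 fold change of 0.15. With library totals 9 were higher and 11 lower, and the median became -0.79. The desmosomal cadherin dsg2.1 measured 108 and 68.1 CPM in periderm and 2445 CPM in the adult (27.7-fold, adjusted p = 0.00193). Its partner dsc2l rose 17.1-fold (adjusted p = 0.00135), the plakophilin pkp2 20.8-fold (adjusted p = 0.00314) and the desmoplakin dspa 7.68-fold (adjusted p = 0.00307). perp, a desmosomal membrane protein and target of p63, measured 353 and 309 CPM in periderm and 4262 CPM in the adult (12.9-fold, adjusted p = 0.00357). The 3 plakin genes of the envelope went down: ppl (periplakin) fell from 861 and 445 CPM to 50.48 CPM (adjusted p = 0.00787), evplb from 451 and 285 CPM to 45.4 CPM (adjusted p = 0.00751) and evpla from 395 and 193 CPM to 50.02 CPM (adjusted p = 0.0263, or 0.0800 without periderm 1). In the precursors ppl was at 33.1 and 19.4 CPM.

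Transglutaminase genes, whose enzymes cross-link envelope proteins, were called in both directions. tgm1l1 measured 35.0 and 41.1 CPM in periderm, 41.6 and 51.4 CPM in the precursors and 1189 CPM in the adult (31.2-fold, adjusted p = 8.511e-04). tgm1l4 measured 437 and 347 CPM in periderm, 1.32 and 3.598 CPM in the precursors and 3 counts (1.38 CPM) in the adult, a ratio of 285 with a 95% counting interval from 97.4 to 1380.2 (adjusted p = 0.00145). pkp3b fell to 1 adult count, from 37.8 and 22.4 CPM (adjusted p = 0.00565), and tgm2a to 0 (at least 32.0-fold, adjusted p = 0.0130).

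Of 39 tested tight junction genes, 10 were higher and 6 lower, and their median log2 fold change of -0.72 was that of all tested genes. With library totals 5 were higher and 12 lower. cldna rose from 2.74 and 10.15 CPM to 497 CPM (74.5-fold, adjusted p = 0.00195), and the polarity gene pard6b from 1.46 and 1.02 CPM to 63.8 CPM (adjusted p = 0.00129). cldn1, the claudin of the mammalian epidermal barrier, rose 6.88-fold (adjusted p = 0.0159, or 0.0514 without periderm 1). cldnf fell with cldne, from 183 and 81.3 CPM to 8.26 CPM (adjusted p = 0.00853). Among 16 tested connexins and pannexins, 3 rose and 2 fell, or 2 and 5 with library totals. Over all tested genes the shares were 14.3% higher and 14.4% lower. cx34.4 and cx35.4 rose 52.7-fold and 21.5-fold (adjusted p = 0.00307 and 0.00254), and cx39.9, a muscle connexin, fell to 0 with cx30.3 (adjusted p = 0.0162).

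Transcription factors known from skin and fin were more often higher than lower. Of 58 tested, 34 were higher and 4 lower (median log2 fold change 2.36, and 1.42 with library totals). elf3, an epithelial Ets factor, measured 20.1 and 8.35 CPM in periderm, 5.48 and 7.71 CPM in the precursors and 1244 CPM in the adult (88.6-fold, adjusted p = 8.809e-04). foxn1, which in mammals drives keratinocyte maturation and the thymic epithelium, had 1 count in both periderm libraries together and measured 42.7 CPM in the adult, a ratio of 612 with a counting interval from 109.9 to 24184 (adjusted p = 0.00193). klf5b and runx2a went from 0 counts and 1 count to 18.4 and 24.3 CPM (adjusted p = 0.00634 and 0.00195). The gene runx2a is also on the mesenchyme list. The higher group also held dlx3b, the fin and limb bud factors sp8a and sp9, and msx2b. Lower were gata2a, sox21b and tfap2b, all at 0 in the adult (adjusted p = 0.00887, 0.0256 and 0.0335), and tead3a, whose call (adjusted p = 0.0372) was lost without either periderm library (adjusted p = 0.0628 and 0.0730).

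Genes of the immune interface were widely higher in adult basal cells. Of 45 genes of antigen presentation and the immunoproteasome, 33 were tested, 8 had no count in either periderm library and 8 had none in the adult. Of the 33 tested, 23 were higher and 0 lower (median log2 fold change 4.27). b2m, the invariant chain of MHC class I, measured 3.47 and 2.14 CPM in periderm, 4.91 and 4.46 CPM in the precursors and 4472 CPM in the adult (1620.2-fold, adjusted p = 4.732e-04). The class I genes mhc1zfa and mhc1uka and the immunoproteasome subunit psmb8a had no count in periderm and measured 372, 125 and 133 CPM in the adult. These were rises of at least 840.4-fold, at least 282-fold and at least 299.5-fold (adjusted p = 4.876e-04, 0.00129 and 0.00125). cd74a, the invariant chain of class II, went from 0.91 and 0 CPM to 3156 CPM (adjusted p = 4.732e-04). Class I genes are polymorphic and close in sequence, so a value can depend on which alleles the stock and the reference share.

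Markers of leukocytes, which also present antigen, moved beside this group. Of 20 tested, 4 were higher and 1 lower, with a median log2 fold change of 0.81 that became -0.13 with library totals. Their summed level was 208 and 320 CPM in periderm and 3679 CPM in the adult, and without the 2 genes shared with the antigen list, of which cd74a is 1, it was 207 and 320 CPM against 523 CPM. The gene rac2 alone made up 339 CPM of that last adult sum, and 27.2 and 42.0 CPM of the periderm sums. The pan-leukocyte gene ptprc measured 3.65 and 4.51 CPM in periderm and 20.2 CPM in the adult (adjusted p = 0.0666, or 0.0367 without precursor library 2). The macrophage gene mpeg1.1 was at 2.74 and 1.02 against 5.97 CPM, the neutrophil gene mpx at 6.202 and 5.64 against 2.29 CPM, and lyz at 5.11 and 3.38 CPM against 0. Among the higher calls were rac2 (27.2 and 42.0 against 339 CPM, adjusted p = 0.00314) and the T cell kinase gene zap70 (0 against 10.1 CPM, adjusted p = 0.0202, or 0.0531 without periderm 2). The third, il2rb, rose with an adjusted p of 0.0140, or 0.0567 without periderm 1 and 0.417 in DESeq2. The 1 lower call was mfap4, at 42.5 and 93.7 CPM in periderm and 1 count in the adult. The part of leukocytes in the result was not tested.

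Of 41 interferon, Stat and Irf genes, 34 were tested, 5 had no count in either periderm library and 5 had none in the adult. Those at 0 in periderm, such as ifih1 and xaf1, could only be called higher. Of the 34 tested, 23 were higher and 0 lower (median log2 fold change 4.13). socs1a, a feedback inhibitor of Jak and Stat signalling, measured 0.18 and 0.34 CPM in periderm and 227 CPM in the adult (759.5-fold, adjusted p = 8.792e-04). stat1a measured 17.5 and 9.47 CPM against 261 CPM (19.5-fold, adjusted p = 0.00736). The RNA sensor gene ifih1 and the interferon-induced gene xaf1 had no periderm count and measured 33.04 and 32.1 CPM, at least 74.6-fold and at least 72.5-fold higher (adjusted p = 0.00112 and 0.00427). A second RNA sensor gene, dhx58, had 1 periderm count and measured 45.4 CPM (adjusted p = 0.00176).

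Of 101 cytokine and chemokine genes, 54 were tested, 44 had no count in either periderm library and 36 had none in the adult. Those at 0 in periderm could only be called higher. Of the 54 tested, 36 were higher and 2 lower (median log2 fold change 4.12). ccl27b, whose mammalian relative is the chemokine of keratinocytes, had no count in periderm, 0.19 and 0 CPM in the precursors and 3694 CPM in the adult, at least 8343-fold above periderm (adjusted p = 4.732e-04). ccl19a.2 and ccl19b, relatives of a mammalian chemokine that guides lymphocytes and dendritic cells, and cxcl8b.1, a neutrophil attractant, had no periderm count either and measured 232, 213 and 580.0 CPM (adjusted p = 9.160e-04, 9.331e-04 and 7.779e-04). ccl25b, a thymus and gut chemokine in mammals, measured 4.38 and 3.05 CPM in periderm, 5.29 and 8.57 CPM in the precursors and 1474 CPM in the adult (401-fold, adjusted p = 4.732e-04). cxcl12b fell from 159 and 62.7 CPM to 0, at least 80.4-fold (adjusted p = 0.00284). The other genes with the highest log2 changes were also at 0 in periderm: cd44a, the hyaluronan receptor, at 1202 CPM in the adult, crispld2 at 958 CPM, the leukotriene receptor cysltr2b at 435 CPM and the TNF receptor family gene tnfrsf18 at 219 CPM. ptgdsb.1, a lipocalin-type prostaglandin D synthase gene, took 2.1% of all adult gene counts and rose from 33.4 and 55.3 CPM to 33923 CPM, with 422 and 97.2 CPM in the precursors (763-fold, adjusted p = 0.00157).

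**Figure D4:**
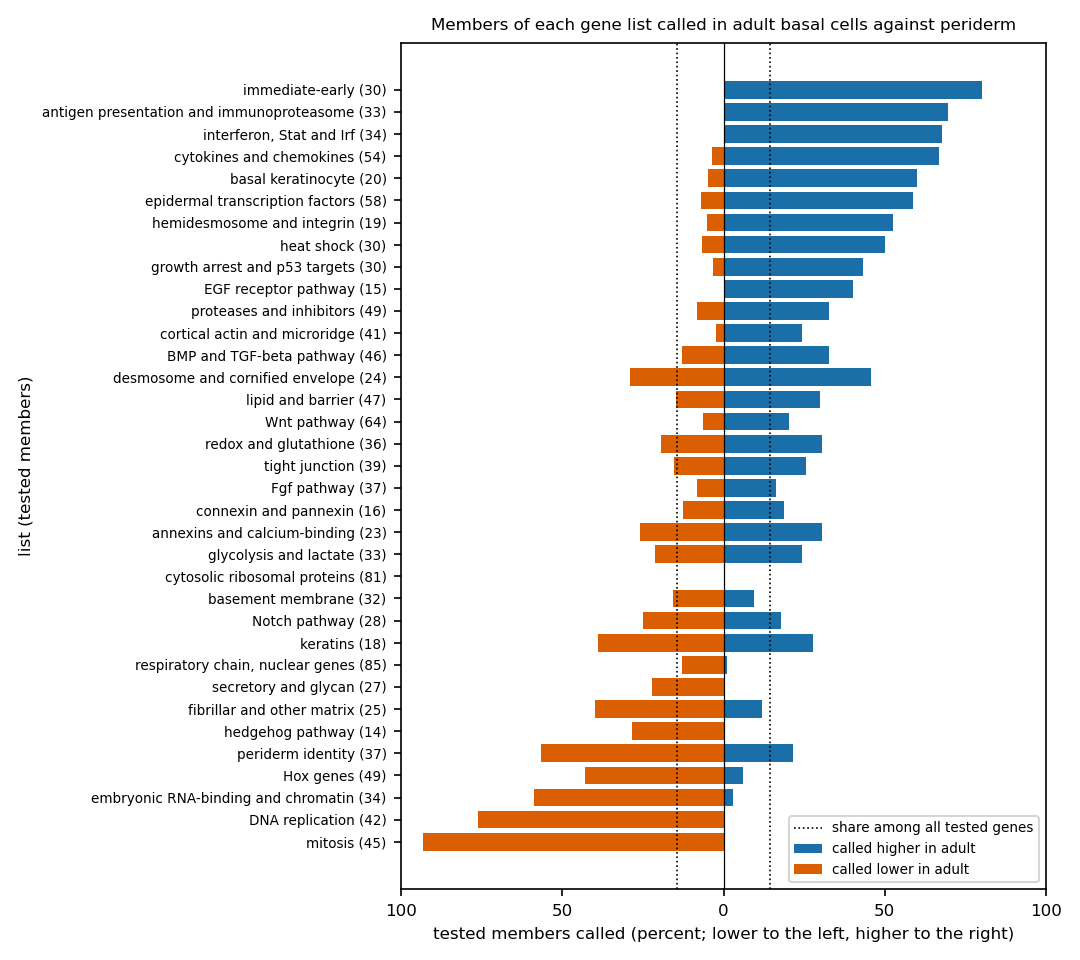
Percent of tested members of each gene list called higher (right, blue) or lower (left, orange) in adult basal cells than in periderm, with the number tested in parentheses; dotted lines mark the shares over all tested genes, 14.3% higher and 14.4% lower. Immediate-early and immune lists lie at the top, and DNA replication and mitosis at the bottom with no member called higher.

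Genes that respond within minutes to hours of a stimulus were also high in the adult library. Of 30 tested immediate-early genes, 24 were higher and 0 lower (median log2 fold change 4.18), and their summed share was 0.517% and 0.479% of counts in periderm, 1.41% and 0.692% in the precursors and 2.77% in the adult. fosb, a subunit of AP-1, measured 12.8 and 32.3 CPM in periderm and 2966 CPM in the adult (131-fold, adjusted p = 0.00131). The phosphatase gene dusp2 rose 64.5-fold (adjusted p = 0.00116), jund 51.9-fold (adjusted p = 0.00252) and mafk 47.3-fold (adjusted p = 0.00612). Heat-shock genes took 3.75% and 2.02% of counts in periderm, 12.5% and 4.16% in the precursors and 16.6% in the adult, and of 30 tested, 15 were higher and 2 lower (median log2 fold change 2.78). hsph1 rose 81.4-fold (adjusted p = 0.00351) and bag3 57.8-fold (adjusted p = 0.00307).

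The most abundant heat-shock genes varied within groups. hsp70l measured 4781 and 1909 CPM in periderm, 23043 and 6543 CPM in the precursors and 52241 CPM in the adult (15.6-fold, adjusted p = 0.0251), and its near copy hsp70.1 went from 8100 and 3467 CPM to 52875 CPM without passing (adjusted p = 0.0544). Without either periderm library, hsp70l, hsp90aa1.2 and ahsa1b were not called, with adjusted p of 0.240 and 0.330, 0.157 and 0.177, and 0.0557 and 0.0574. Without a precursor library, hsp70.1 was called (adjusted p = 0.0196 and 0.00176). The small heat-shock genes hspb8 and hspb9 fell to 1 and 2 adult counts (adjusted p = 0.0142 and 0.00661). Both stress lists thus moved with group and within the precursor pair, beside the immune and transcription factor lists. Leaving out all genes of the stress and other cell type lists before scaling, an alternative chosen after the data were seen, gave 2541 higher and 2446 lower calls. The genes left in can change there only through scaling, the shared variance fit and the p adjustment. It therefore cannot show the part of stress or of other cells in their calls. Whether dissociation or sorting differed between the fins and the embryos is not given, and its part was not tested.

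Adult basal cells held few transcripts of dividing cells. Of 45 tested mitosis genes, 42 were lower and 0 higher (median log2 fold change -4.85, or -4.33 with genes at 0 set at their bound), and their share of counts was 0.487% and 0.324% in periderm, 0.251% and 0.334% in the precursors and 0.0119% in the adult. mki67, a marker of cycling cells, measured 288 and 213 CPM in periderm, 163 and 225 CPM in the precursors and 5.05 CPM in the adult (49.4-fold, adjusted p = 0.00185). The spindle checkpoint kinase gene ttk and the condensin subunit gene ncapd2 had 0 adult counts, at least 61.0-fold and at least 72.5-fold lower (adjusted p = 0.00266 and 0.00191). Of 42 tested DNA replication genes, 32 were lower and 0 higher (median log2 fold change -3.20). rrm2, a ribonucleotide reductase subunit, fell from 503 and 292 CPM to 2 adult counts, a ratio of 433 with a counting interval from 119.9 to 3577 (adjusted p = 0.00147). pcna, the sliding clamp, measured 983 and 634 CPM in periderm and 268 CPM in the adult and did not pass (adjusted p = 0.0615), but was called lower without precursor library 2 (adjusted p = 0.0415) and with library totals (adjusted p = 0.009).

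Growth arrest and p53 target genes went the other way, with 13 of 30 tested higher and 1 lower (median log2 fold change 1.76, and 0.82 with library totals). klf4, a factor of barrier formation in mammals, measured 2.74 and 7.22 CPM in periderm and 408 CPM in the adult (79.2-fold, adjusted p = 0.00102). cdkn1a, the p21 inhibitor of cyclin-dependent kinases, measured 54.7 and 45.2 CPM against 379 CPM (7.58-fold, adjusted p = 0.00403). foxo1a, pmaip1 and the antiproliferative gene btg1 rose 42.9-fold, 18.6-fold and 15.8-fold (adjusted p = 0.00414, 0.00333 and 0.00383). The lower gene was cdkn1ca, which encodes a p57 inhibitor and had 0 adult counts (at least 48.4-fold, adjusted p = 0.00195). btg2 and klf4 are shared with stress or factor lists, so these counts are not independent of each other.

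Genes known from embryonic growth were lower as well. Of 34 tested genes of the RNA-binding and chromatin list, 20 were lower and 1 higher (median log2 fold change -3.69). The list also holds marcksb, which belongs to neither class. The mRNA-binding gene igf2bp1 measured 323 and 556 CPM in periderm, 342 and 686 CPM in the precursors and 0 in the adult, at least 319-fold lower (adjusted p = 0.00149). igf2bp3, the let-7 inhibitor gene lin28a and marcksb were at 0 in the adult too, at least 103-fold, at least 49.3-fold and at least 239-fold lower (adjusted p = 0.00131, 0.00147 and 9.331e-04). cbx7a, a Polycomb subunit, was higher (adjusted p = 0.0423) and lost its call without either periderm library (adjusted p = 0.0840 and 0.167).

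Signalling pathways differed in how many members were called and in which direction. In the EGF receptor pathway, 6 of 15 tested genes were higher and 0 lower (median log2 fold change 2.15). The receptor gene egfra measured 14.4 and 12.07 CPM in periderm and 62.4 CPM in the adult (4.72-fold, adjusted p = 0.0136, or 0.0968 with library totals). The ligand genes nrg2a and nrg1 rose 24.2-fold and 10.1-fold (adjusted p = 0.00358 and 0.00306), and the feedback inhibitor errfi1a 17.5-fold (adjusted p = 0.00341). hbegfa rose 13.7-fold (adjusted p = 0.0163), a call lost without either periderm library (adjusted p = 0.0646 and 0.0889).

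In the Notch pathway, 5 of 28 tested genes were higher and 7 lower, with a median log2 fold change of 0.37 that became -0.57 with library totals. The shares over all tested genes were 14.3% higher and 14.4% lower. Higher were ligands of the Jagged type: jag2a measured 0.18 and 3.16 CPM in periderm and 127 CPM in the adult (67.7-fold, adjusted p = 0.00407), and jag1b 19.5 and 28.2 CPM against 380 CPM (15.9-fold, adjusted p = 0.00146). The target gene hey1 rose 6.84-fold (adjusted p = 0.00555). Lower were ligands of the Delta type, which are also neural genes: dla and dlb were at 213 and 46.4 CPM and at 87.4 and 56.4 CPM in periderm and at 0 in the adult (adjusted p = 0.00654 and 0.00195). The proneural modulator hes6 fell to 2 adult counts (adjusted p = 0.00566).

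Of 64 tested Wnt genes, 13 were higher and 4 lower (median log2 fold change 0.08). With library totals 11 were higher and 15 lower, and the median became -0.86. The ligand genes wnt5a, wnt3a and wnt7aa measured 0.18 and 1.35 CPM, 0 and 0.11 CPM, and 3.83 and 8.35 CPM in periderm, and 78.9, 34.9 and 224 CPM in the adult (adjusted p = 0.00165, 0.00149 and 0.00259). rnf43, a feedback inhibitor of Wnt receptors, rose 33.7-fold (adjusted p = 0.00284). The receptor fzd2 and the inhibitor sfrp5 fell (adjusted p = 0.00817 and 0.00493). In the BMP and TGF-beta pathway, 15 of 46 tested genes were higher and 6 lower (median log2 fold change 0.96, and 0.02 with library totals). The activin subunit gene inhbaa and the ligand gene tgfb1a rose 47.1-fold and 39.6-fold (adjusted p = 0.00129 and 0.00289). The BMP antagonist nog3 rose from 0.91 and 0 CPM to 22.9 CPM (adjusted p = 0.00741). The ligand gene bmp5 fell to 0 (adjusted p = 0.00683), and tgfbi, a matrix protein gene, from 715 and 563 CPM to 80.3 CPM (7.95-fold, adjusted p = 0.00966).

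Hox genes, which record position along the body and its appendages, differed along with the body site of the samples. Of 49 tested, 21 were lower and 3 higher, against 14.4% and 14.3% of all tested genes. No adult count was found for 31 of them, while 16689 of all 30849 gene symbols had one. All 49 Hox genes were tested, whereas the 30849 symbols include untested ones, so these sets are not alike. The higher ones belong to the groups known from the distal fin and tail. hoxa13b measured 5.66 and 2.93 CPM in periderm and 340 CPM in the adult (80.8-fold, adjusted p = 0.00106), and hoxa13a 4.93 and 5.41 CPM against 84.4 CPM (16.2-fold, adjusted p = 0.00131). hoxc12a rose 8.13-fold (adjusted p = 0.0336) and was not called with library totals (adjusted p = 0.0772). hoxb9a, hoxb3a and hoxb8a had 50.53 and 42.9, 25.4 and 41.3, and 27.7 and 36.4 CPM in periderm and 0 in the adult (adjusted p = 0.00414, 0.00320 and 0.00277).

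Many of the largest falls were in genes of other tissues. The 12 genes with the largest falls among those the naming rule allowed had 0 adult counts, and among them were the skeletal muscle genes actc1a, mylpfa, acta1b, tpma and myl1. actc1b, a muscle actin, measured 10033 and 22680 CPM in periderm, 9973 and 20348 CPM in the precursors and 1 count in the adult (adjusted p = 0.00229). All 34 tested muscle markers had negative log2 fold changes and 31 were called. Of 35 muscle markers, 29 had no adult count and could not be called higher. Muscle transcripts made up 3.07% and 7.76% of gene counts in periderm, 2.63% and 6.61% in the precursors and 0.000454% in the adult, which is 16 counts. Both embryonic sorts held muscle transcripts, in overlapping shares, and the adult sort almost none.

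The other embryonic tissues followed. Of 28 tested neural markers 21 were lower, of 34 blood and vessel markers 22, of 19 pigment cell markers 11 and of 21 lens genes 9, with 0 higher in each. No adult count was found for 17 of 32 neural, 27 of 34 blood and vessel and 12 of 19 pigment cell markers. Such genes could not be called higher, so the absence of higher calls was largely set beforehand. Pigment markers took 0.162% and 0.121% of counts in periderm, against 0.000852% in the adult. gch2 measured 593 and 407 CPM in periderm, 20.8 and 45.4 CPM in the precursors and 0 in the adult (at least 363-fold, adjusted p = 0.00129). The neuronal gene elavl3 and the embryonic globin gene hbbe1.1 were at 551 and 343 CPM and at 401 and 468 CPM in periderm and at 0 in the adult (adjusted p = 9.160e-04 and 0.00186). Globin copies are near-identical, so single values are uncertain. The lens crystallin gene crybb1 was at 65.9 and 128 CPM in periderm, 1.89 and 5.14 CPM in the precursors and 0 in the adult (adjusted p = 0.00346). The periderm line carries the cryaa:egfp cassette, and the part of that cassette in the lens values was not tested. Lens genes took 0.0368% and 0.0700% of periderm counts. Of 65 lens genes, 63 had no adult count and 17 none in periderm, and those at 0 in the adult could not be called higher. Among all 30849 gene symbols, 16689 had an adult count.

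Other groups had counts in both kinds of library. Of 17 tested ionocyte genes, 5 were lower and 0 higher, and they took 0.108% and 0.215% of counts in periderm and 0.0718% in the adult. With TMM factors their sum was 910 and 1820 CPM in periderm and 1160.5 CPM in the adult, between the periderm libraries. atp1b1b, a sodium pump subunit, fell from 86.1 and 433 CPM to 3.67 CPM (adjusted p = 0.00960). Of 12 hatching gland and yolk genes, 3 were higher and 2 lower, against 14.3% and 14.4% of all tested genes. The hatching enzyme gene he2 fell from 370 and 334 CPM to 0 (at least 256-fold, adjusted p = 8.792e-04), while rbp4, a retinol carrier, rose from 17.5 and 17.9 CPM to 2628 CPM, with 424 and 163 CPM in the precursors (148-fold, adjusted p = 8.792e-04). xbp1, a factor of secretory cells, rose 7.25-fold (adjusted p = 0.00692), a call lost without either periderm library (adjusted p = 0.0886 and 0.0651). Among 11 tested markers of mucous, sensory and immune-like cells of adult skin, 3 were lower and 0 higher. No adult count was found for 13 of 19 such markers and 10 of 24 ionocyte genes, which could not be called higher. The mucous cell factor foxa3 was at 9.30 and 20.2 CPM in periderm and at 2 adult counts (adjusted p = 0.0362, or 0.0642 without periderm 2).

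**Figure D5:**
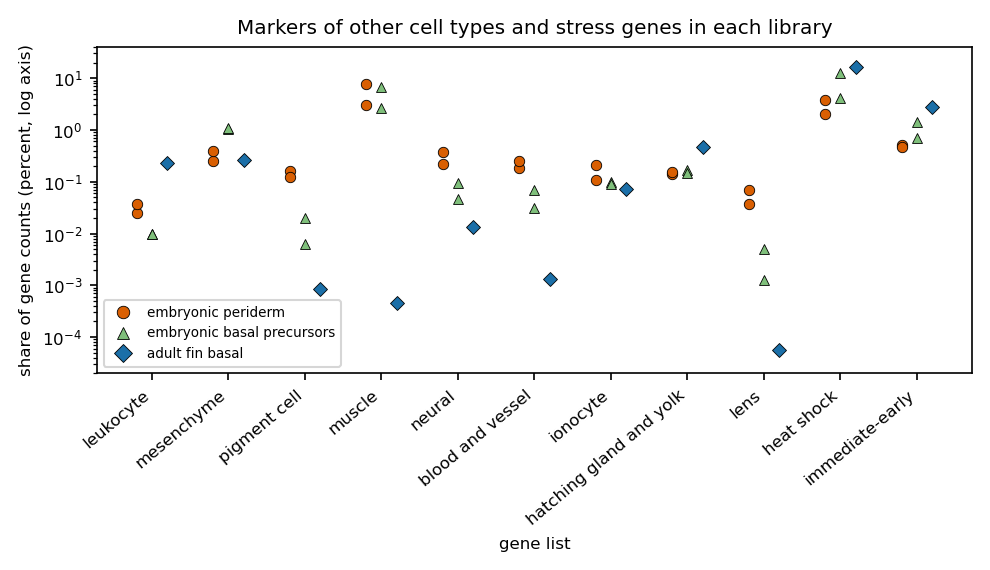
Share of gene counts (percent of library totals without TMM factors, log axis) taken in each library by marker lists of other cell types and by stress genes. Circles are periderm, triangles embryonic basal precursors and the diamond the adult basal library. Muscle stands at 3.07% and 7.76% in periderm and 0.000454% in the adult, and heat-shock genes at 3.75% and 2.02% against 16.6%.

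Metabolic genes differed beside the muscle markers. Of 33 tested genes of glycolysis, 8 were higher and 7 lower, with a median log2 fold change of 0.40. With library totals 5 were higher and 10 lower, and the median became -0.54. The lower ones include the muscle forms aldoab, at 945 and 2063 CPM in periderm and 0 in the adult, and pgam2, at 97.2 and 191 CPM and 0 (adjusted p = 0.00143 and 0.00192). gapdh, the glycolytic dehydrogenase gene, fell from 907 and 1619 CPM to 3 counts (adjusted p = 0.00154). The glucose transporter gene slc2a1b rose from 5.66 and 23.4 CPM to 963 CPM (65.1-fold, adjusted p = 0.00195), and pkma 10.26-fold (adjusted p = 0.00195). In the precursors gapdh stood at 901 and 1760 CPM, beside aldoab at 960.5 and 1664 CPM. The summed muscle markers were 25928 and 65698 CPM in periderm and 7.34 CPM in the adult. The part of muscle in the glycolysis result, gapdh included, was not tested.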

How the data were processed

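The authors deposited unnormalized read counts, 1 value per transcript row and library. HISAT2 2.2.1, featureCounts 2.0.3 and the build GRCz11 are named in the submitters' processing notes. Cell sorting used a SONY SH800S, per the labels' protocols, and RNA was made with the RNeasy Plus Micro Kit and an MGIEasy library kit. Strand use, like the handling of multi-mapped reads, is not given in the sources used here, so antisense partners and near-identical copies (hsp70, globin, class I and keratin genes) cannot be told apart. Of 75805 rows, 57 had names turned into dates, and 46 of these were matched by accession to RefSeq (assembly GRCz12tu, names only). The table gives no coordinates, and RPKM and TPM columns were not used.

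Gene totals per library were 4622910 and 7505589 (periderm), 5522950 and 4904825 (basal precursors) and 3521988 (adult). Tests used edgeR 4.0.16 in R 4.3.3 on all 5 libraries: filterByExpr by group, TMM, glmQLFit, glmQLFTest and Benjamini-Hochberg adjustment over 18147 genes, with a threshold of 0.05 and 2 residual degrees of freedom. SE was taken as the size of the log2 fold change over the root of F. CPM are TMM-scaled. A fold against 0 counts is a bound against 3 counts per library, and with 1 to 3 counts it is a ratio with a 95% Poisson interval. The code was tested on simulated counts. Alternatives covered scaling, filters, DESeq2 1.42.0, edgeR's older fit, a 2-fold threshold, thinning, row sums, 3 libraries, each embryonic library left out and the replicate block.

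Comparison, members and the 45 gene lists were chosen with earlier results of these data known, and 15 names caught by a pattern were dropped. The naming rule took itgb4, krt5, krt4, agr1 and tp63, then 12 called genes per direction by log2 change with at least 20 CPM, then up to 4 called members per list and direction with at least 10 CPM. Where no member was called, up to 2 stood as values. Some genes the rule took are not reported here. Genes named outside it, among them dlx3b, sp8a, sp9, msx2b, lamb2, btg2, dst, itga6b, itgb1b, b2m, stat1a, ccl25b, cdkn1a, egfra, mki67, pcna, perp, dspa, lye, evpla, evplb, icn2, grhl1, grhl3, krt8, krt17, krtt1c19e, hsp70l, hsp70.1, ptprc, mpeg1.1, mpx, lyz, actc1b and ptgdsb.1, were chosen after their values were seen.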

Additional observations from a re-analysis of the deposited data

How the results depend on the processing

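No call on a gene named here changed direction under the 16 alternatives. Of 194 named calls, 162 held wherever a value was had, and over all alternatives the largest adjusted p of a named call was 0.417. The split of calls depended on the scaling. Library totals without a factor gave 1793 higher and 5133 lower calls, while RLE gave 2772 and 2384. Totals ended 6 named calls, on col12a1a, cycsb, egfra, frem2b, hoxc12a and sparc (adjusted p between 0.0772 and 0.279), and added calls on icn2 and pcna. DESeq2 gave 2459 and 3040, a test against a 2-fold change 1967 and 1751. Leaving out 1 embryonic library at a time gave between 1713 and 2830 higher and between 2268 and 2936 lower calls, and most lost calls were lost without periderm 1 (23 genes) or periderm 2 (21 genes). The lowest higher count, 1713, came without periderm 1. The adult library cannot be left out. In the fit with a replicate block, 2082 genes were higher and 2340 lower, and 11 named calls were lost, among them krt5 (adjusted p = 0.0515). The numbers are shared by the periderm and precursor libraries, whose deviations correlated at 0.168 across genes. With 2 pairs and no label of a shared batch, they were not read as pairs, and the adult library took number 1 from its column label. Leaving out the marker and stress lists ended no named call among the genes left in, which could change only through scaling, the shared variance fit and the p adjustment. Depth limits calls of absence in the adult library to 1.38 CPM.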

Other observations

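Of 47 tested genes for lipids of the barrier, 14 were higher and 7 lower in adult basal cells than in periderm (median log2 fold change 0.45). With library totals 9 were higher and 11 lower, and the median became -0.49. apoeb, an apolipoprotein gene, rose from 305 and 729 CPM to 14397 CPM (27.8-fold, adjusted p = 0.00356, or 0.0749 without periderm 1). The sterol synthesis genes fdft1 and msmo1 rose 41.4-fold and 54.8-fold (adjusted p = 0.00381 and 0.00947), and msmo1 was not called without periderm 1 (adjusted p = 0.0618). abca12, a lipid transporter of the mammalian skin barrier, fell from 37.9 and 47.9 CPM to 2.29 CPM (adjusted p = 0.00832), and alox12, a lipoxygenase, from 471 and 284 CPM to 9.18 CPM (41.0-fold, adjusted p = 0.00299). Of 36 redox genes, 11 were higher and 7 lower, against 14.3% and 14.4% of all tested genes. Their median log2 fold change of -0.04 became 0.09 with RLE. With library totals 7 were higher and 14 lower, and the median became -0.98. The superoxide dismutases sod3b and sod2 rose 428-fold and 16.1-fold (adjusted p = 9.331e-04 and 0.00262), and the periderm gene duox fell 18.2-fold (adjusted p = 0.0124). nqo1, a quinone reductase gene, fell from 197 and 160 CPM to 3 adult counts (adjusted p = 0.00131).

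Of 49 tested proteases and inhibitors, 16 were higher and 4 lower (median log2 fold change 1.04, and 0.10 with library totals). serpinb1l4, a clade B serpin, rose from 0.73 and 0.11 CPM to 645 CPM (1687-fold, adjusted p = 4.732e-04) and timp4.3, a metalloprotease inhibitor, from 0 and 1.13 CPM to 134 CPM (adjusted p = 0.00128). mmp16a, a membrane metalloprotease, fell to 0 (adjusted p = 0.0131). Among 41 cortical actin genes, 10 were higher and 1 lower, with a median log2 fold change of 0.26. With library totals 5 were higher and 9 lower, and the median became -0.68. The actin-severing gene scinlb rose 6.94-fold (adjusted p = 0.00336). The thymosin tmsb1 rose 12.5-fold (adjusted p = 0.00481) and arpc1a fell 3.33-fold (adjusted p = 0.0367). Both calls were lost without either periderm library, with adjusted p of 0.0762 and 0.0671 for tmsb1 and 0.108 and 0.0581 for arpc1a. Of 23 annexin and S100 genes, 7 were higher and 6 lower, or 4 and 10 with library totals. anxa5b rose 10.5-fold and s100w 16.8-fold (adjusted p = 0.00281 and 0.00539), and anxa1b fell 15.6-fold (adjusted p = 0.00381).

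No cytosolic ribosomal protein gene of 81 tested was called in edgeR with TMM scaling, where 6 higher and 3 lower genes had an unadjusted p under 0.05. RLE scaling gave 2 higher calls, library totals 7 lower calls and DESeq2 4 higher and 1 lower, and the median log2 fold change of 0.34 became -0.59 with totals. rpl3 measured 2909 and 2705 CPM in periderm and 2860.1 CPM in the adult. Of 85 nuclear genes of the respiratory chain, 11 were lower and 1 higher, a share of lower calls below the 14.4% of all tested genes, with a median log2 fold change of -0.86 against -0.72. With library totals 46 were lower and 0 higher. uqcrc1, a complex III subunit, fell from 267 and 261 CPM to 33.5 CPM (adjusted p = 0.00576), and the electron carrier gene cycsb rose 3.56-fold (adjusted p = 0.0225), a call lost without either periderm library (adjusted p = 0.132 and 0.0832). Of 14 hedgehog genes, 4 were lower and 0 higher. The transducer smo fell from 35.9 and 44.7 CPM to 2.75 CPM (adjusted p = 0.00820) and the antagonist hhip to 2 counts (adjusted p = 0.0100). Of 37 Fgf genes, 6 were higher and 3 lower (median log2 fold change -0.80), or 2 and 8 with library totals. Over all tested genes 14.3% were higher and 14.4% lower, with a median of -0.72. The phosphatase gene dusp5 rose 64.9-fold (adjusted p = 0.00706, or 0.0531 without periderm 2), and the receptor gene fgfr4 fell from 100.3 and 68.9 CPM to 0, at least 61.5-fold (adjusted p = 0.00195). Of 27 secretory and glycan genes, 6 were lower and 0 higher, against 14.4% lower and 14.3% higher over all tested genes.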
